A study of Mus musculus with 2 samples.

Results

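Aminoacyl-tRNA synthetases are the enzymes that load each transfer RNA with its amino acid, and their transcripts were compared between 2 pools of mouse morulae. The genes were chosen by symbol alone: the names of the synthetases (Aars, Cars, Dars and so on, with an optional 1 or 2), Eprs, Farsa and Farsb, and the scaffold genes Aimp1, Aimp2 and Eef1e1. The rule found 39 of the 12836 genes in the table. They are 20 cytosolic synthetases, 16 mitochondrial synthetases, whose symbols end in ars2, and 3 scaffold genes. The rule's letter class leaves out F, so Fars2, the mitochondrial enzyme for phenylalanine, is not among them. It had 241 reads in the knockdown library and 209 in the control.

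The morulae came from ICR embryos, per the labels. One library (labelled KD) was made from embryos injected with double-stranded RNA against Nat10, the enzyme that writes N4-acetylcytidine on RNA, and is called dsNat10 here. The other (labelled NC) came from embryos injected with double-stranded RNA against GFP, a sequence that mice lack, and is called dsGFP. Both groups were injected, and each is 1 pooled library of polyadenylated RNA, so no difference below has a replicate check and no p-value is given. The labels give the stage and no age in hours or days.

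The libraries held 28303119 (dsNat10) and 29139232 (dsGFP) estimated reads. The targeted gene, Nat10, was 23.7-fold lower after knockdown, with 37 reads against 886. Of 9 morula markers 8 were in the table and none was at 0, with summed levels of 17358 TPM in dsNat10 and 16479 TPM in dsGFP. Dppa5a made up most of that sum, and the other 7 markers summed to 1508 TPM and 2243 TPM. Of the 8, 6 had a log2 ratio below 0, with a median of -0.96, while Dppa5a and Gata3 were above 0. Cdx2, Nanog, Tead4 and Krt8 were the 4 markers more than 2-fold lower in dsNat10. The oocyte list summed to 44.9 TPM in dsNat10 and 6.52 TPM in dsGFP over its 3 genes in the table. Its genes did not share a direction: Zp3, of the egg coat, had 642 reads against 106, H1f8 had 286 against 0, and Gdf9 had 1 against 54. The oocyte genes Bmp15, Nlrp5 and Oosp1 were also on the list and had no entry under those symbols. The cumulus, blood and fibroblast lists had 1, 2 and 1 genes in the table, with sums of 23.9, 44.1 and 0 TPM in dsNat10 and 26.9, 66 and 0.08 TPM in dsGFP. The part of other cells or of inherited RNA in the results below was not tested.

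A synthetase activates its amino acid with ATP and transfers it to the matching tRNA, and the fidelity of this step sets the fidelity of translation. Animal cells carry nuclear genes for separate cytosolic and mitochondrial enzymes, and the mitochondrial ones are imported to serve translation of the proteins that mitochondrial DNA encodes. Gars and Kars are exceptions, since each makes an enzyme for both compartments. In the cytosol several synthetases sit together in the multi-synthetase complex, held by the scaffold proteins AIMP1, AIMP2 and AIMP3, the last encoded by Eef1e1.

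The mitochondrial genes held most of the large differences between the libraries, in both directions, and most cytosolic genes had similar levels in both. The groups were not matched for abundance. By median the mitochondrial genes were less abundant, and among all genes large differences were more common at low abundance. Expression is given as CPM, reads per 1000000 reads of the library, and as TPM, which also divides by gene length. The log2 ratio is that of CPM plus 1, dsNat10 over dsGFP. Calls required 3 things: an average of at least 5 CPM over the libraries, a log2 ratio of 1 or beyond in either direction, and a 95% counting interval of the ratio that leaves out equality. Of the 39 genes, 37 reached the mean, 8 of them were called lower and 2 higher. Over all 8738 genes that reached it, 15.3% were called lower and 15.2% higher. The share of the 37 called lower was 21.6%, and 5.41% were called higher. The median log2 ratio of the 37 was -0.13, beside 0.01 over all genes that reached the mean, and 23 of the 37 were below 0, beside 49.5% of all genes. In pooled embryos, fewer cells that make a transcript and less of it per cell cannot be told apart.

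**Figure D1:**
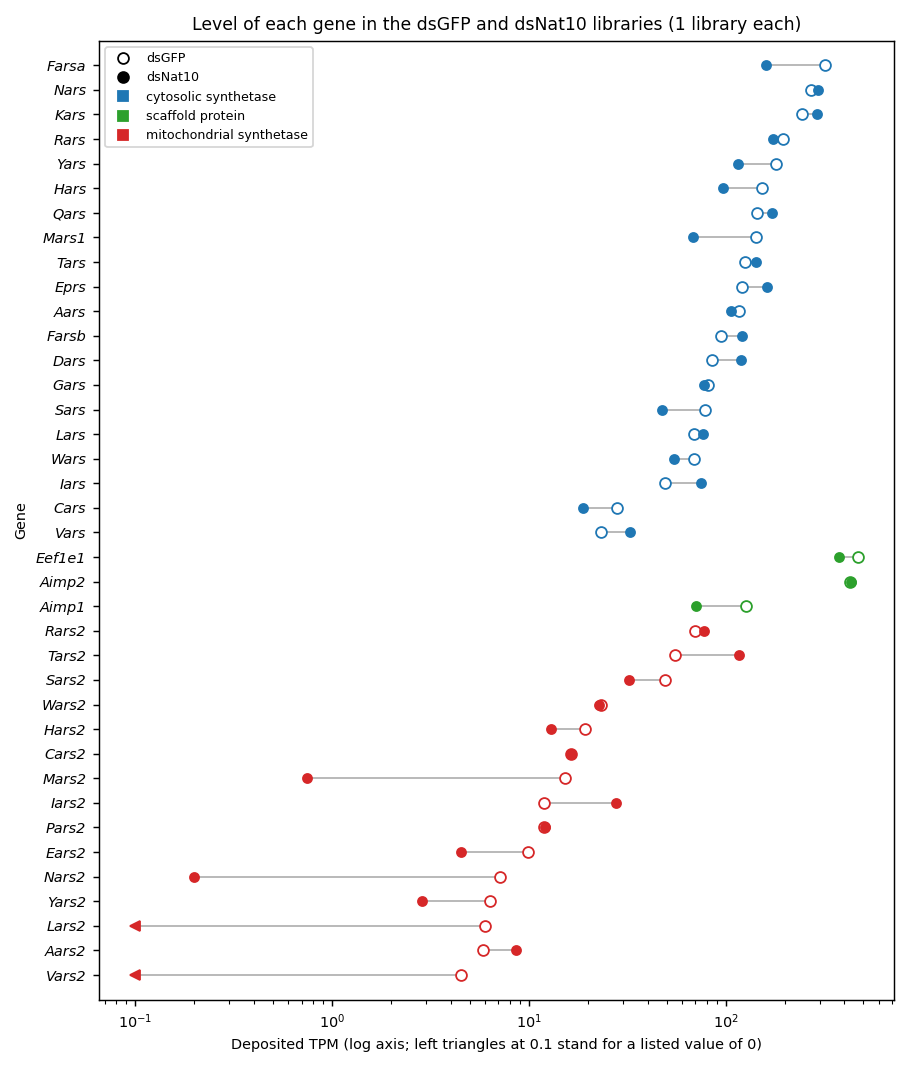
Deposited TPM (log axis) of 38 of the genes in the dsGFP library (open circles) and the dsNat10 library (filled circles), ordered by the dsGFP level within each group. The cytosolic genes lie at 18.8 TPM or more in both libraries, while Lars2 and Vars2 are listed at 0 in dsNat10 (left triangles).

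By level, the groups stood apart more than the libraries did. The 20 cytosolic synthetases had a median of 111 TPM in dsNat10 and 119 TPM in dsGFP, and the 16 mitochondrial ones 12.5 TPM and 13.6 TPM. Nars, for asparagine, was the cytosolic synthetase with the highest TPM in dsNat10 (292 TPM, against 270 TPM in dsGFP, from 13936 and 13544 reads), and Farsa in dsGFP (320 TPM, against 160 TPM in dsNat10). Vars, for valine, was the lowest cytosolic gene in dsGFP at 23.2 TPM, and Cars, for cysteine, the lowest in dsNat10 at 18.8 TPM. Among mitochondrial genes the range in dsGFP ran from 4.52 TPM (Vars2) to 69.3 TPM (Rars2). In dsNat10 it ran from 0 TPM (Lars2 and Vars2) to 116 TPM (Tars2). Summed over the 16 genes, the mitochondrial level was 349 TPM in dsNat10 and 352 TPM in dsGFP, and the cytosolic sum over 20 genes was 2397 TPM and 2583 TPM.

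Of the cytosolic synthetases, all 20 reached the mean of 5 CPM, 2 (10%) were called lower and none higher, beside 15.3% and 15.2% of all genes. The cytosolic ratios divided evenly around 0, with 10 above and 10 below, a median of -0.03 and a range from -1.10 to 0.53. Farsa encodes the catalytic subunit of the phenylalanine enzyme (Entrez gene 66590, GRCm38 chromosome 8, 84856969 to 84869257). Its reads numbered 5079 after knockdown and 10693 in the control, which is 178 CPM against 370 CPM and 2.08-fold lower (95% counting interval 2.02 to 2.16). Its partner subunit Farsb had 4823 reads against 3943 and was 1.24-fold higher (1.18 to 1.29). The TPM of Farsa was 3.36 times that of Farsb in dsGFP and 1.32 times in dsNat10, so the balance of the transcripts for the subunits of 1 enzyme differed between the libraries. Farsa's log2 ratio was -1.06 in CPM and just short of the size limit in the deposited TPM.

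Mars1, for methionine, was the other cytosolic gene called lower (Entrez gene 216443, chromosome 10, 127296221 to 127311786). Its 3669 reads against 7970, or 128 CPM against 276 CPM, made it 2.15-fold lower (2.07 to 2.24). Its counts are fractional, and 1.99% of its exon bases in GENCODE M21 are shared with Ddit3, a stress gene on the opposite strand. Ddit3 had 664 reads in dsNat10 and 268 in dsGFP. The library kit does not mark strand, so reads from the shared bases cannot be assigned, and the value of Mars1 is uncertain to that extent.

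Below the size limit came 4 more cytosolic genes with lower levels in dsNat10. Sars, for serine, had 3169 reads against 5501, or 1.72-fold lower (1.64 to 1.80). Hars, for histidine, had 3357 against 5575, or 1.64-fold lower (1.57 to 1.72). Yars, for tyrosine, had 4912 against 8105, or 1.63-fold lower (1.58 to 1.69). With Cars (866 against 1400, 1.60-fold lower, 1.47 to 1.74), Farsa and Mars1, these made 6 of 20 cytosolic genes lower under a limit of 1.5-fold, and none was higher. Over the 39 genes, 13 were lower and 2 higher at that limit, or 35.1% and 5.41% of the 37. Over all genes at that limit 23.8% were lower and 25.1% higher. These shares are not matched for abundance, and 17 of the 20 cytosolic genes averaged 100 CPM or more. The remaining 14 cytosolic genes had log2 ratios from -0.27 (Wars, for tryptophan) to 0.53 (Iars, for isoleucine, 6066 reads against 4223).

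The 11 genes of the multi-synthetase complex had a median log2 ratio of 0.09. Mars1 was the 1 member called (9.09% lower and none higher), beside 15.3% lower and 15.2% higher over all genes. Eprs, which charges glutamate and proline from 1 protein, had 14741 reads against 11671 (1.28-fold higher, 1.25 to 1.31). Dars, for aspartate, had 4716 against 3517 (1.35-fold higher, 1.30 to 1.42), and Qars (log2 ratio 0.19), Kars (0.20) and Lars (0.09) lay nearer to 0. Rars, for arginine, had 6550 against 7735, a log2 ratio of -0.22. The 12 cytosolic genes outside the complex had a median of -0.24. Of these, 8 were below 0, 1 (8.33%) was called lower and none higher.

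All 3 scaffold genes were below 0 in CPM, by unequal amounts, and none was called. Aimp1 had 1278 reads against 2407, which is 44.7 CPM against 83.4 CPM and 1.86-fold lower (1.74 to 2), with fractional counts. It was the least abundant of the 3. Eef1e1 was 1.30-fold lower (1.26 to 1.35), with 6199 reads against 8164. Aimp2, with the highest CPM of the 3, had 7947 against 8284, a log2 ratio of -0.04 that turned to 0.03 in the deposited TPM, and 29.4% of its exon bases are shared with the kinase gene Eif2ak1 on the other strand.

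**Figure D2:**
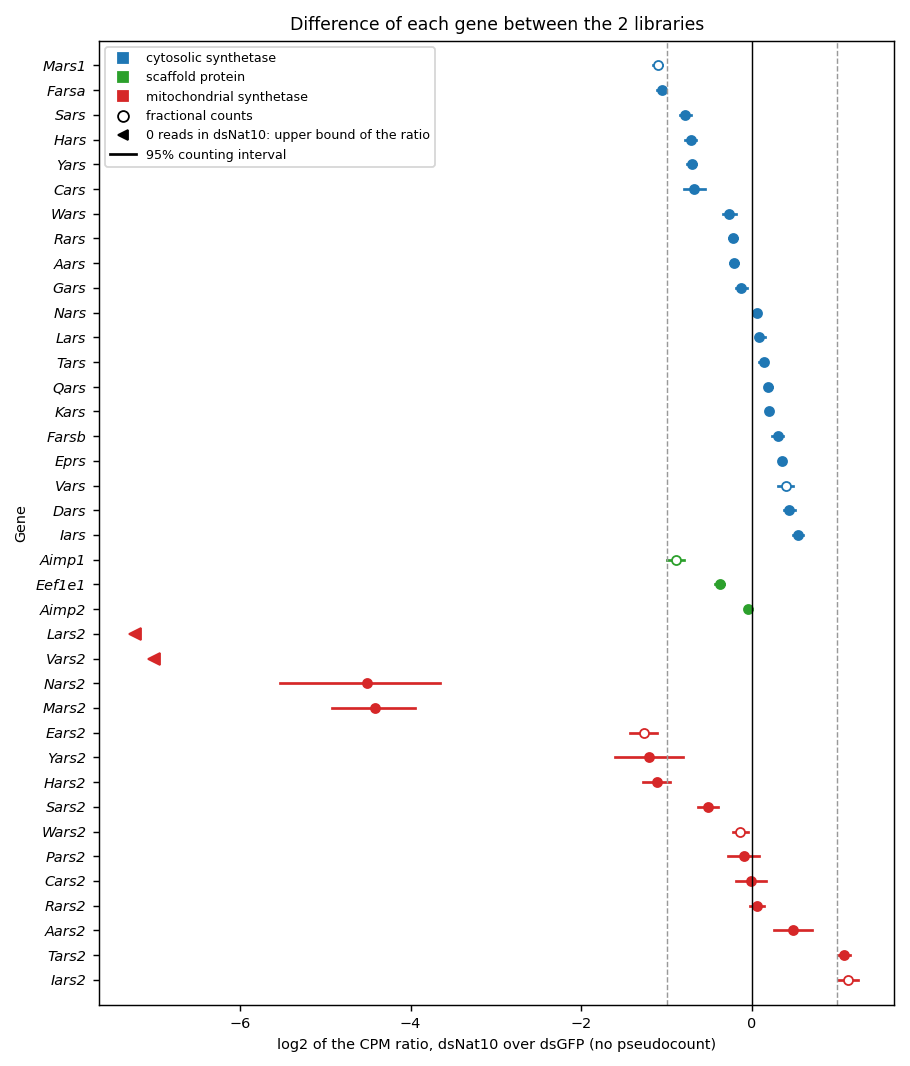
Log2 of the CPM ratio, dsNat10 over dsGFP, without a pseudocount, for 38 of the genes, each with its 95% counting interval; open circles mark genes with fractional counts and triangles the upper bound for genes with 0 reads in dsNat10. Most cytosolic genes lie within 1 of equality (dashed lines at -1 and 1), and the mitochondrial genes spread from 2.18-fold higher (Iars2) to at least 150-fold lower (Lars2).

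The mitochondrial synthetases spread more widely. Of 16, 14 reached the mean of 5 CPM, and the median log2 ratio was -0.32. Of the 14, 6 (42.9%) were called lower and 2 (14.3%) higher, beside 15.3% and 15.2% of all genes. The median size of the log2 ratio, whatever its sign, was 1.07, beside 0.327 for the cytosolic genes and 0.567 for all genes. These sets were not matched for abundance: the median level in dsGFP was 13.6 TPM for the mitochondrial and 119 TPM for the cytosolic genes. Lars2, for leucine (Entrez gene 102436, chromosome 9, 123366927 to 123462675), was not read in dsNat10 (0 reads against 454). Against a floor of 3 reads in that library it was at least 150-fold lower. Vars2, for valine (Entrez gene 68915, chromosome 17, 35655634 to 35667639), had 0 against 390, at least 129-fold lower, and 8.52% of its exon bases overlap an antisense gene. Mars2, for methionine (Entrez gene 212679, chromosome 1, 55237177 to 55240058), had 39 reads against 840, 21.3-fold lower (15.5 to 30.2). With 1.37 CPM in dsNat10 and 29.1 CPM in dsGFP, Mars2 reached the mean of 5 CPM through dsGFP.

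Such losses were common among other genes of the same depth in these libraries. Of 3159 genes whose dsGFP reads numbered from 250 to under 1000, 11.1% had 0 reads in dsNat10, and among the synthetase genes in that range 2 of 8 did, Lars2 and Vars2. The range was set after seeing their values. Lars2 and Vars2 reached the mean of 5 CPM through dsGFP alone, with means of 7.86 CPM and 6.76 CPM, so a gene at that mean with 0 reads had to be called. In the deposited TPM and FPKM both fall below a mean of 5 and are not called there.

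Nars2 and Yars2 were the 2 genes under the mean and so could not be called. Nars2, for asparagine, had 11 reads against 254, 22.9-fold lower (12.6 to 46.4). Yars2, for tyrosine, had 78 against 181, 2.30-fold lower (1.75 to 3.04). With them the median over all 16 mitochondrial genes was -0.73.

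Ears2, for glutamate (Entrez gene 67417, chromosome 7, 122034162 to 122067094), was 2.41-fold lower (2.16 to 2.70), with 453 against 1104. Its counts are fractional and its value uncertain, and it was just short of the size limit in the deposited TPM (log2 ratio -0.98). Hars2, for histidine (Entrez gene 70791), had 489 reads against 1072, 2.17-fold lower (1.95 to 2.42). In deposited TPM the difference of Hars2 was smaller, 13.0 TPM against 19.2 TPM or 1.48-fold, and it is not called there. The gene length implied by the authors' counts and TPM for Hars2 was 0.712 times as long in dsNat10 as in dsGFP, relative to the median gene. Of the 35 genes of the set that reached the mean and had a TPM above 0 in both libraries, 33 were within 10 percent of the median gene in this quantity.

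The higher genes were Tars2 and Iars2. Tars2, for threonine (Entrez gene 71807, chromosome 3, 95739974 to 95756365), had 5228 reads after knockdown and 2506 in the control. At 183 CPM against 86.8 CPM it was 2.11-fold higher (2.01 to 2.21), and it is the mitochondrial gene with the highest mean CPM. Iars2, for isoleucine (Entrez gene 381314, chromosome 1, 185286642 to 185329419), had 1891 against 876 and was 2.18-fold higher (2.01 to 2.37). Iars2 has fractional counts, and 24.2% of its exon bases are shared with other genes, among them Rab3gap2 on the opposite strand. The other 6 mitochondrial genes that reached the mean had log2 ratios from -0.50 (Sars2, for serine, 1019 reads against 1470) to 0.44 (Aars2, for alanine, 399 against 289). Cars2 (530 against 541), Pars2 (475 against 514) and Rars2 (2466 against 2391) had counting intervals that include equality. Wars2, for tryptophan, had 1725 against 1915.

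**Figure D3:**
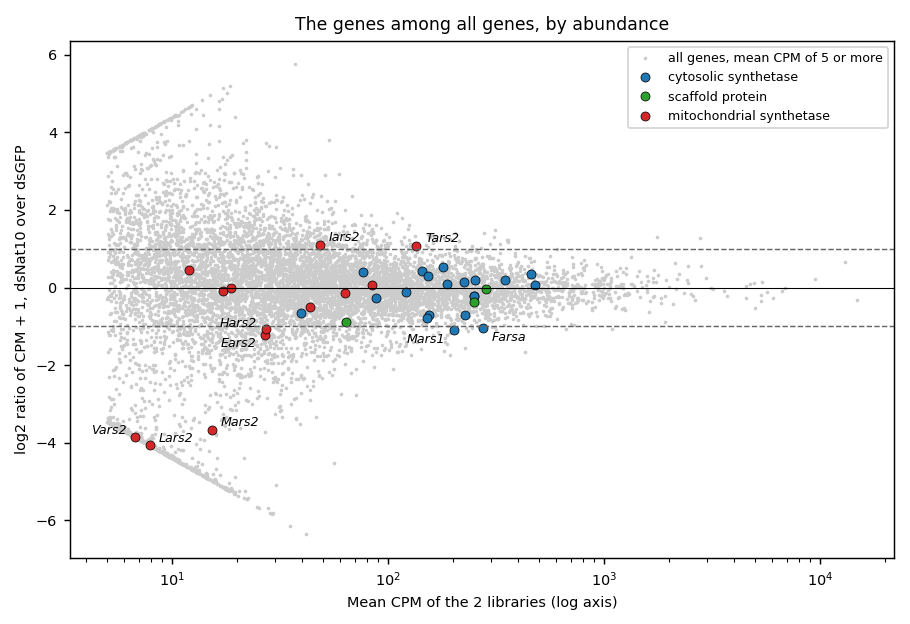
Log2 ratio of CPM plus 1 against mean CPM (log axis) for the 8738 genes that averaged at least 5 CPM (grey) and for 36 synthetase and scaffold genes among them (coloured), with 9 of the 10 called genes named. The grey cloud narrows to the right, and Farsa, Mars1 and Tars2 lie beyond the dashed limits where few genes do.

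How common a call is depends on abundance, and the synthetase genes sit on both sides of the range. Among all genes with a mean of 5 to under 20 CPM, 27.8% were called lower and 26.9% higher; of the 6 synthetase genes there, all mitochondrial, 3 were lower (Lars2, Vars2 and Mars2). From 20 to under 50 CPM the shares were 15.4% lower and 16.2% higher, and of 5 synthetase genes 2 were lower (Ears2 and Hars2) and 1 higher (Iars2). From 50 to under 100 CPM, 7.68% of genes were lower and 8.24% higher, and of 6 synthetase or scaffold genes 1 was lower. At 100 CPM or more the shares were 2.55% and 2.32%, and of 20 synthetase or scaffold genes 2 were lower (Farsa and Mars1) and 1 was higher (Tars2). These bands were chosen after seeing the data.

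The cytosolic and the mitochondrial gene were set side by side for 13 amino acids, and their ratios had the same sign for 8 and the opposite sign for 5. In dsGFP and in dsNat10 the cytosolic gene had the higher TPM in all 13 pairs. The log2 ratio of the mitochondrial gene was the larger in size in 9. Among these are Nars2 and Yars2, which averaged under 5 CPM, and Lars2 and Vars2, with 0 reads in dsNat10. The genes of a pair were not matched for abundance. For leucine, valine and asparagine, the cytosolic gene was slightly higher (Lars 0.09, Vars 0.39, Nars 0.06), and the mitochondrial log2 ratios were -4.06, -3.86 and -2.82. For methionine (-1.10 and -3.67) and histidine (-0.71 and -1.07) both were lower. For isoleucine (0.53 and 1.10) and threonine (0.13 and 1.07) both were above 0, and for alanine the pair was -0.21 and 0.44. Hars and Hars2 lie head to head and share 195 exon bases on opposite strands in GENCODE M21, whose reads cannot be told apart.

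**Figure D4:**
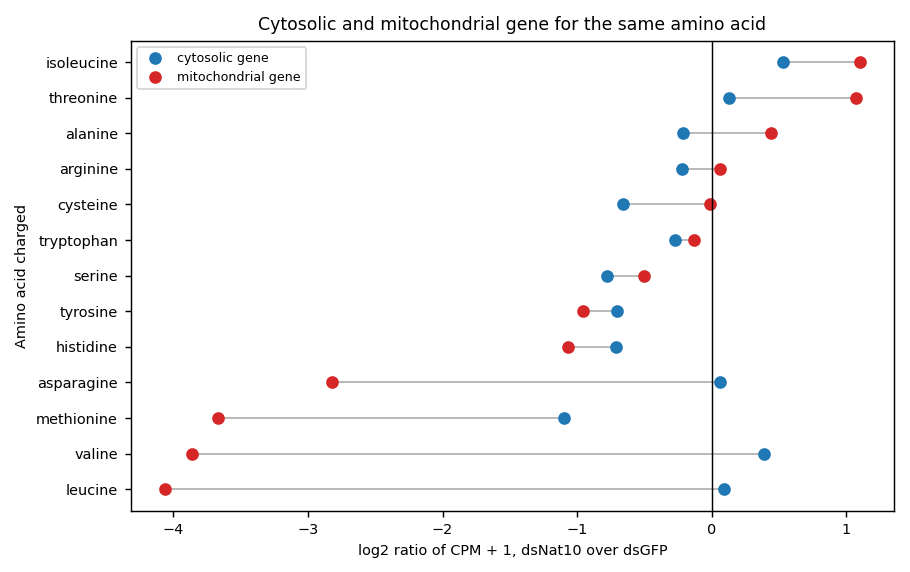
Log2 ratio of CPM plus 1, dsNat10 over dsGFP, of the cytosolic (blue) and mitochondrial (red) gene for each of 13 amino acids, ordered by the mitochondrial value. The pairs for leucine, valine, asparagine and methionine are the widest apart, with mitochondrial minus cytosolic values from -2.57 (methionine) to -4.25 (valine). Nars2 and Yars2, which averaged under 5 CPM, are included.

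The 2 structural classes of synthetase differ in the fold of the catalytic domain. Of 17 class I genes that reached the mean, 5 (29.4%) were lower and 1 (5.88%) higher (median -0.22). Among those lower are Lars2, Vars2 and Mars2, which reached the mean through dsGFP, so the class I share lower leans on the filter. For class II the counts were 3 lower (18.8%) and 1 higher (6.25%) of 16 (median -0.11). Over all genes 15.3% were called lower and 15.2% higher. The classes were not matched for abundance, with a median in dsGFP of 25.7 TPM over 18 class I genes and 80.8 TPM over 17 class II genes. Eprs, with 1 domain of each class, was left out.

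Several cytosolic synthetase genes are known targets of ATF4, the transcription factor of the amino acid response, which binds a composite C/EBP-ATF element. The element was searched for as TGATGCAA or its reverse complement TTGCATCA, the only motif searched, from 250 bases before to 50 bases after each start in RefSeq GRCm38.p6. It was found in 4 of the 29 genes of the set with a promoter sequence, all among the 13 cytosolic ones, and in 1.03% of the 27025 genes of the RefSeq promoter table. Hars, Vars, Wars, Cars, Nars, Hars2, Rars, Lars and Pars2 were among those without an entry. For 23 of the 29 genes with a promoter sequence, the sequence matched a transcript start on the strand of the gene. The 3 stretches shown carry the element, in capitals, and are written along the strand of the gene. Read that way, Yars has TGATGCAA, and Iars and Tars have the reverse complement.
Yars: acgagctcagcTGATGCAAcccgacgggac
Iars: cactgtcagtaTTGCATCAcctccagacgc
Tars: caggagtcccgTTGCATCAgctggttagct

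The stretches lie at chr4:129189895-129189924 (Yars, plus strand), chr13:49682126-49682155 (Iars, plus) and chr15:11399655-11399684 (Tars, minus). Relative to the start that the promoter table uses, the element begins before it in Tars and just after it in Yars and Iars. For Yars the table of gene positions has an earlier start, at 129189734, so the element also lies inside that gene model. The 3 genes did not share a direction: their log2 ratios were -0.70 (Yars), 0.53 (Iars) and 0.13 (Tars), and none was called. A match of these letters is a description and not a measured binding site.

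Other genes of the ATF4 response had calls in both directions, at shares near those of all genes (15.2% higher and 15.3% lower). Atf4 had 2788 reads against 2899, a log2 ratio of -0.04. Of 20 listed genes found, 16 reached the mean, 3 were higher and 2 lower, and the median was -0.01. Higher were the arginine transporter gene Slc7a1 (315 reads against 30), Psph, the last enzyme of serine synthesis (826 against 297), and Ddit3. Slc7a1 reached the mean through dsNat10, with 11 CPM there and 1.04 CPM in dsGFP. Lower were Cebpg, a partner of ATF4, and the amino acid transporter gene Slc7a5. Cebpg had 0 reads against 420 (at least 139-fold lower), so that it reached the mean through dsGFP alone. Slc7a5 had 77 against 220, with fractional counts. It reached the mean through dsGFP, with 2.7 CPM in dsNat10 and 7.62 CPM in dsGFP. Psat1, of serine synthesis, was the most abundant by mean CPM, with 22901 reads against 23440.

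Genes that act next to the synthetases were listed separately, and 25 of the 26 in the table reached the mean, with 3 called lower, 1 higher and a median of 0.07. Over all genes 15.3% were called lower and 15.2% higher. Gatb is a subunit of the mitochondrial amidotransferase that turns glutamate on a tRNA for glutamine, loaded by the Ears2 enzyme, into glutamine. Its 929 reads against 297 made it 3.16-fold higher (2.77 to 3.61), while Ears2 was lower. The other subunits were Gatc, at 853 against 511 (1.69-fold higher, 1.51 to 1.89), and Qrsl1, at 1415 against 1361. Mtfmt, which formylates the methionine that Mars2 loads in mitochondria, had 973 against 642 (1.53-fold higher, 1.38 to 1.69). The counts of Gatc and Mtfmt are fractional.

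Called lower were Dtd1, a deacylase that frees tRNA from D-amino acids, Eif2ak4, the kinase that senses uncharged tRNA, and Ptrh2, a peptidyl-tRNA hydrolase. Dtd1 had 0 reads against 976 (at least 322-fold lower), Eif2ak4 had 0 against 539 (at least 178-fold) and Ptrh2 had 350 against 1718 (4.86-fold lower, 4.33 to 5.47). Like Lars2, Dtd1 and Eif2ak4 reached the mean through dsGFP alone, so their calls were bound to be lower. The 1 gene under the mean was Tarsl2, a threonine synthetase outside the symbol rule, with 0 reads against 110. Eef1a1, the factor that carries charged tRNA to the ribosome, was the most abundant of the list by mean CPM, with 60742 reads against 62780.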

How the data were processed

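Polyadenylated RNA of 1 morula pool per group was made into SMART-seq2 libraries, per the labels. The tools named in the submitters' processing notes are Trim Galore for trimming, HISAT for mapping to GRCm38 and HTSeq for counting, without versions. The authors deposited estimated counts, not normalized, and FPKM and TPM values. In 23.2% of genes the deposited count is fractional, which HTSeq does not give with its usual settings. Reads of such genes may be split with a similar or overlapping gene.

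Counts were rounded and scaled to CPM by TMM (edgeR 4.0.16, R 4.3.3). Log2 ratios used CPM plus 1, so that differences of low genes come out too small. Folds are plain CPM ratios with exact Clopper-Pearson 95% intervals, and at 0 reads are bounds against 3 reads, which is 0.105 CPM in dsNat10. Both cover counting error only: the library has no molecular identifiers, so PCR copies of 1 molecule count as several reads. Coordinates and promoters are from RefSeq GRCm38.p6, to which all 39 genes matched by Entrez identifier, and exon overlaps from GENCODE M21.

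Genes and lists were chosen with earlier results of these data known. Every gene of the symbol rule could be named, with full values for those with a log2 ratio of at least 0.58 in size and for the most and least abundant of each group. From the neighbouring-gene and ATF4 lists, called genes (at most 6 a list) and the most abundant were named, and others named there (Gatc, Qrsl1, Mtfmt, Tarsl2 and Atf4) were chosen after their values were seen. One gene and 1 promoter stretch that fall under these rules are left out of the text and figures but included in totals over the groups.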

Additional observations from a re-analysis of the deposited data

How the results depend on the processing

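Plain library totals, median-of-ratios size factors (DESeq2 1.42.0) and a pseudocount of 0.5 kept all 10 calls. The deposited TPM gave 3 genes lower (Ears2, Farsa, Hars2, Lars2 and Vars2 were not called), beside 11.2% of all genes, and the deposited FPKM 4 (Farsa was called), beside 10.4%. A pseudocount of 5 lost Hars2 alone and left 7 lower (13% of all genes). No filter on low counts added Nars2, giving 9 of 39 lower beside 25.3% of all genes. A mean of 20 CPM or more left 5 lower (8.74% of all genes), a mean of 50 CPM or more left 3 lower and 1 higher (4.62% and 4.71% of all genes), and leaving out genes with fractional counts left 5 lower and 1 higher (15.7% and 16% of all genes). A limit of 1.5-fold gave 13 lower (23.8% of all genes). No call changed direction. The median over all members was -0.05 in TPM and -0.21 without a filter, beside 0.06 and -0.14 over all genes. The cytosolic median was 0.03 in TPM and 0.06 at 50 CPM or more, so its sign is not settled. The mitochondrial median of -0.32 became -0.02 in TPM, -0.05 in FPKM, -0.04 at 50 CPM or more and -0.73 without a filter. It was -0.13 with Gars and Kars counted as mitochondrial, and also -0.13 with Fars2 added, an alternative chosen after seeing the data. The scaffold median was -0.33 in TPM and -0.21 without the fractional Aimp1. No paired analysis was possible because each group had 1 library, and for the same reason no library could be left out.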
